A study of Mus musculus with 11 samples.

Results

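Integrins and laminins were compared between the colons of germ-free and humanized mice. The members were the genes of the raw count table whose symbols name an integrin α or β subunit or a laminin α, β or γ chain, with at least 10 reads in at least 5 of the 11 mice. This rule kept 37 of 43346 genes, made up of 18 integrin α subunits, 8 integrin β subunits and 11 laminin chains, and no gene with a matching name fell short of the read minimum. All 37 also passed the low-expression filter of the test, which left 19863 genes. The 36 members described here, 10 of them laminin chains, were divided by the cells in which they are best known into 7 epithelial, 14 stromal, 10 leukocyte and platelet, and 5 widely expressed subunits.

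Colonic tissue of 5 germ-free and 6 humanized mice was sequenced, all of them male Swiss Webster animals (an outbred stock), 8 to 10 weeks old and kept singly in isolators. Humanized mice came from the germ-free colony and were given, at 4 to 5 weeks of age, 300 µL of a suspension of human stool by oral gavage, all from 1 healthy donor. The humanized group thus stands for 1 human microbiota, and whether the germ-free mice received a sham gavage is not given in the sources used here. The comparison asks which of these genes differ in the colon between mice with and without this microbiota.

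Integrins are receptors in the cell membrane, each a pair of an α and a β subunit, that hold cells to the extracellular matrix or to each other and link these contacts to the cytoskeleton. Laminins are secreted trimers of an α, a β and a γ chain and form, with collagen IV, nidogens and perlecan, the sheet-like basement membrane under the epithelium and around muscle, nerves and vessels. In the gut, epithelial cells rest on this sheet through hemidesmosomes built on the integrin of Itga6 and Itgb4, smooth muscle and fibroblasts carry collagen and matrix receptors that share Itgb1, and leukocytes use the integrins of Itgb2, Itgb7 and Itga4 to leave vessels and to stay in the mucosa. Because the tissue was taken whole, fewer cells of a type and less RNA per cell cannot be told apart in any value below.

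The reads counted on genes were 49097005 to 64148538 per germ-free and 39125290 to 54219854 per humanized mouse. The labelled tissue was checked against fixed marker lists: the summed level of 12 epithelial markers was 4550 to 6160 RPKM (reads scaled to gene length and library size) in germ-free and 5230 to 7260 RPKM in humanized mice. The humanized group was the more scattered one, and humanized mouse 5 stood apart from it, with the lowest summed level of the fibroblast markers (28.8 RPKM against 95.9 to 204 in the other humanized mice), the smooth muscle markers (48 against 94.8 to 402 RPKM) and the endothelial markers (3.62 against 10.98 to 26.9 RPKM). For the members, values without this mouse are given where they differ in call. Over all 19863 genes, the median log2-fold change of humanized over germ-free mice (LFC) was 0.0084.

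Promoters are shown for the 2 members called higher, the laminin chain Lamb3 and the integrin subunit Itgb6, and for the laminin chain and the integrin with the largest decrease, Lama2 and Itga8, chosen by direction and size of the change. Each sequence is the RefSeq window on GRCm38.p6 from 250 bases before to 50 bases after the annotated start, 5′ to 3′ on the strand of the gene. Lamb3 is on the plus strand of chr1:193301744-193302043, Itgb6 on the minus strand of chr2:60722554-60722853, Lama2 on the minus strand of chr10:27616893-27617192 and Itga8 on the minus strand of chr2:12301895-12302194. In the deposited table, on mm10, Lamb3 spans chr1:193207699-193343878 and Lama2 chr10:26980036-27619758, so both RefSeq starts lie inside the deposited gene. Capitals mark matches to the motifs searched on both strands.
Lamb3: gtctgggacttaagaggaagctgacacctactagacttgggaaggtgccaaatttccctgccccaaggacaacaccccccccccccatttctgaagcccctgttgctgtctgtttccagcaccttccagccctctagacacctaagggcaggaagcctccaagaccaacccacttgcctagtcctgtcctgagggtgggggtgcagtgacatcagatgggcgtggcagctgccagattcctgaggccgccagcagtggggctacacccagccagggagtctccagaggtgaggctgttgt
Itgb6: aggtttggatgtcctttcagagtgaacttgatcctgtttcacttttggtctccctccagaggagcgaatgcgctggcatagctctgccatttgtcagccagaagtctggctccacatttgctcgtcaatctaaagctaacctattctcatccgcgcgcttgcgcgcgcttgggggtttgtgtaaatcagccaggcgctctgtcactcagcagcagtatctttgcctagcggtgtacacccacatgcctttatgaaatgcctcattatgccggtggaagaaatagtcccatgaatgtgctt
Lama2: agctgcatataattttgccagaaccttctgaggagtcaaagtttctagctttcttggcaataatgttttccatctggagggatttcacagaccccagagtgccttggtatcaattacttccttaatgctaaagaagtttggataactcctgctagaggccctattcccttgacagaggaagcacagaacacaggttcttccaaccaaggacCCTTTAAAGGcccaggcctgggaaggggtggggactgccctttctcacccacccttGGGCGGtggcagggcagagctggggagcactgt
Itga8: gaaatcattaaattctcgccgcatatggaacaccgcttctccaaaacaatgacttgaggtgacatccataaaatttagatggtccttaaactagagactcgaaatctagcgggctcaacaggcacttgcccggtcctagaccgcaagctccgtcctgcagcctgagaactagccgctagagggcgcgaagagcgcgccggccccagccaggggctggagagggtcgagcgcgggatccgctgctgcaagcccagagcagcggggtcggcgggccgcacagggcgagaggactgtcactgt

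RefSeq promoters were used for 23 of the 36 members, with starts on chromosome 18, where Lama3 lies, left out. The motifs were TGANTCA (the AP-1 site), GGGCGG (the GC box), TATAAA (the TATA box) and the CArG box, the site of serum response factor, which is known for its role at smooth muscle genes. In Lama2 the CArG box match begins 39 bases before the start, and a GC box lies after the start. The CArG box was held by 1 of the 23 member promoters, that of Lama2, and by 1.63% of all 32851 promoters of this length. The GC box was in 11 of the 23 (47.8%, against 35.7% of all), the AP-1 site in 2 (8.7%, against 7.81%) and the TATA box in 0 (against 13.6%). Each member gave 1 window, while the shares of all are over 32851 windows without that limit, so the 2 kinds of share are not strictly alike. The windows of Lamb3, Itgb6 and Itga8 held none of these letters. A match describes the sequence and is not a shown binding site.

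Of the 36 members described, 10 were called lower (27.8%) and 2 higher (5.56%) in humanized mice at FDR below 0.01, against 10.1% and 9.2% of all tested genes. With edgeR's quasi-likelihood test 7 were lower and 1 higher, against 6.53% and 7.05%. The calls fell unevenly over the classes, with 9 of 14 stromal members lower and none higher, 2 of the 7 epithelial members described higher and none of these lower, 1 of 10 leukocyte and platelet members lower, and no call among the 5 widely expressed members. The classes were chosen with earlier results of these data known, so this split is a description and not an independent test. By kind of protein, 6 of the 10 laminin chains were lower and 1 higher, 3 of the 18 integrin α subunits were lower, and 1 of the 8 integrin β subunits was lower and 1 higher. The median LFC was -1.18 for stromal, -0.04 for epithelial, 0.15 for leukocyte and platelet, and -0.01 for widely expressed members. The groups did not overlap in 12 members lower in humanized mice, among them Itga5, Itga9 and Lama5, which were not called, and in 1 member higher, compared with 9.73% and 8.67% of all tested genes.

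**Figure D1:**
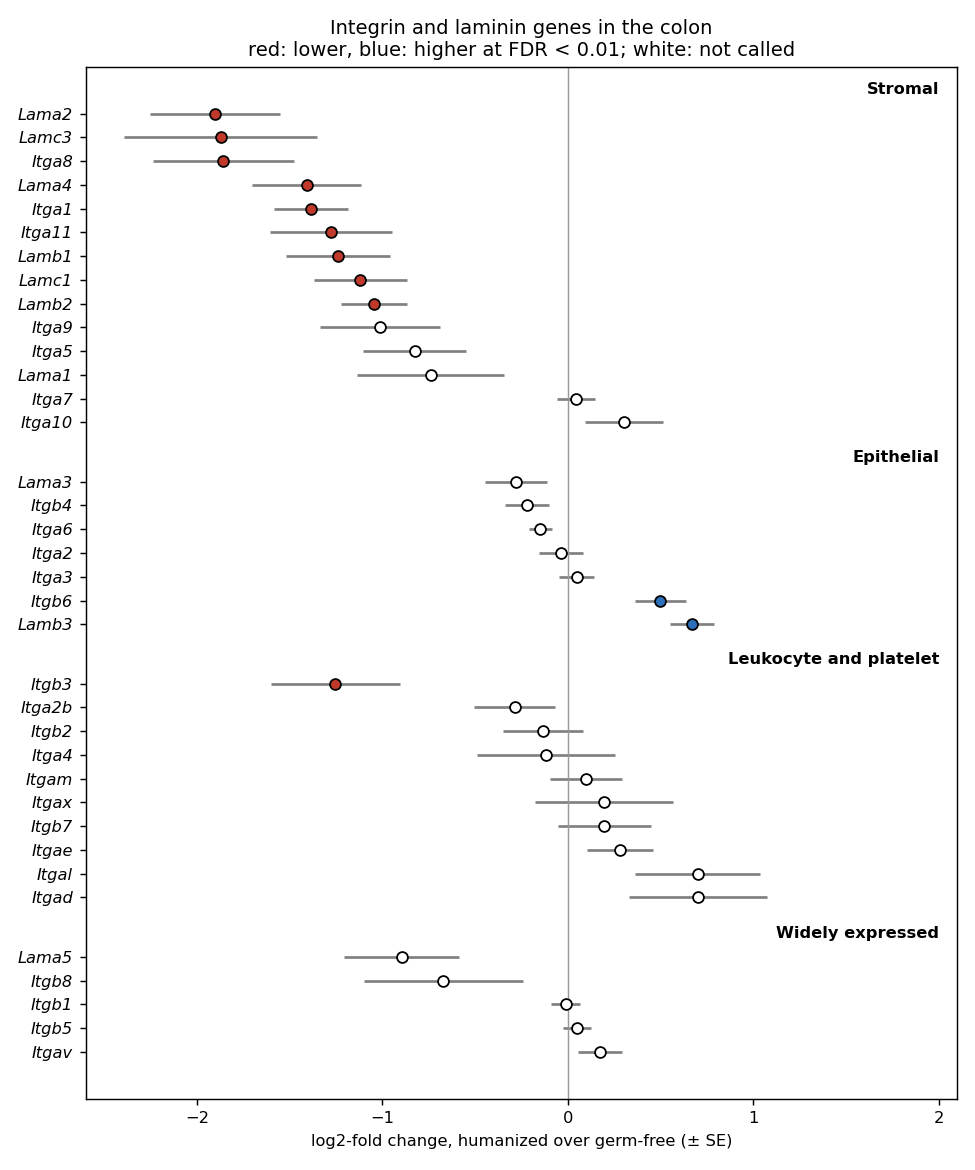
Log2-fold change (humanized over germ-free, x axis) of each of the 36 members by class, with bars of 1 standard error from the quasi-likelihood fit. Of the 14 stromal members 9 are red (lower), from Lama2 at -1.90 to Lamb2 at -1.05, while the 2 blue points (higher) are the epithelial Lamb3 at 0.67 and Itgb6 at 0.50.

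Both members called higher belong to the epithelial class. Lamb3, which with Lama3 belongs to the laminin that anchors epithelia through hemidesmosomes, rose 1.59-fold in humanized mice, and Lama3 was not called. Itgb6, the partner of Itgav in an epithelial receptor that activates latent TGF-β, rose 1.41-fold. Of the 7 epithelial members described, which are not the whole class, none was called lower by edgeR's exact or quasi-likelihood test or by DESeq2, and 1 (14.3%) passed an unadjusted p of 0.05 in that direction, against 19% of all tested genes.

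Lamb3 stood at 16.5, 19.3, 18.3, 18.5 and 18.8 RPKM in the 5 germ-free mice. In humanized mice it ran from 22.8 to 38.6 RPKM with a median of 28.1. Every humanized mouse was above every germ-free mouse, and Lamb3 was the only member higher in humanized mice without overlap. Its mean was 18.3 ± 1.08 RPKM (SD, n = 5) in germ-free and 29.0 ± 5.79 RPKM (SD, n = 6) in humanized mice, an LFC of 0.67 ± 0.12 (SE) at FDR = 4.09e-06. Humanized mouse 5, the one with the least stromal marker RNA, had the highest Lamb3 level, and without it the LFC was 0.57 (FDR = 3.32e-07). On 6686 to 8685 reads per germ-free mouse and 5610 to 12118 per humanized mouse, counting error is small beside the spread between mice.

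The rise of Lamb3 stood under each scaling of the libraries. With scaling to total counts, which moves the median LFC of all genes to -0.18, Lamb3 was at 0.48 (FDR = 2.83e-04). With scaling to the epithelial markers, which moves that median to -0.24, it was at 0.41 (FDR = 0.00127). Lama3, an epithelial laminin α chain, was at 3.02 ± 0.32 RPKM (SD, n = 5) in germ-free and 2.48 ± 0.695 RPKM (SD, n = 6) in humanized mice, with overlapping groups and an LFC of -0.28 ± 0.17 (SE, FDR = 0.245).

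Itgb6 measured 2.37, 2.15, 2.01, 1.69 and 2.01 RPKM in germ-free mice. Its humanized values ranged from 2.32 to 3.94 RPKM around a median of 2.68. Only humanized mouse 4 (2.32 RPKM) lay below the highest germ-free mouse. The means of 2.05 ± 0.25 (SD, n = 5) and 2.89 ± 0.603 RPKM (SD, n = 6) gave an LFC of 0.50 ± 0.14 (SE) at FDR = 0.00709. This call was close to the threshold: it was lost with the quasi-likelihood test (FDR = 0.018), with total-count scaling (LFC 0.31, FDR = 0.12), with epithelial scaling (LFC 0.23, FDR = 0.33), and without any 1 of germ-free mice 2, 3, 4 and 5 (LFC 0.51, 0.49, 0.44 and 0.49) or of humanized mice 2, 5 and 6 (LFC 0.51, 0.46 and 0.38).

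The integrins of the hemidesmosome and of the lateral epithelial contacts were abundant and were not called. Itgb4 stood at 24.4, 24.5, 25.4, 21.3 and 24.4 RPKM in germ-free mice and from 15.1 to 26.6 RPKM (median 20.8) in humanized mice, with overlap and an LFC of -0.22 ± 0.12 (SE, FDR = 0.191). Its partner Itga6 had means of 21.5 ± 1.15 (SD, n = 5) and 19.3 ± 1.33 RPKM (SD, n = 6), an LFC of -0.15 ± 0.06 (SE, FDR = 0.124). Both were called lower with total-count scaling (LFC -0.41 and -0.34) and with epithelial scaling (LFC -0.49 and -0.40), so their calls turn on the scaling. Itga3 and Itga2, which pair with Itgb1 as receptors for laminin and collagen, had LFC values of 0.05 and -0.04 and overlapping groups.

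All 12 epithelial markers had an LFC above 0 (median 0.24). Of these markers 3 were called higher (25%, against 9.2% of all tested genes), and the part of the markers in the epithelial results was not tested. With libraries scaled to these markers, Lamb3 was the 1 epithelial member called higher, and Itga6 and Itgb4 were called lower.

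The stromal class held most of the decrease. Lower in humanized mice were 6 laminin chains, among them the β and γ chains common to most basement membranes (Lamb1, Lamb2, Lamc1) and the α chains of muscle and vessels (Lama2, Lama4), and 3 integrin α subunits that pair with Itgb1 (Itga1, Itga8, Itga11). Decreases ran from 2.07-fold for Lamb2 to 3.74-fold for Lama2. None of the 14 was called higher, none passed an unadjusted p of 0.05 in that direction, and the same count of 0 came from edgeR's quasi-likelihood test and from DESeq2.

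Lamc1, the γ chain of most laminins, was at 9.96, 8.20, 9.24, 11.8 and 10.1 RPKM in germ-free mice. Humanized values lay between 1.69 and 6.71 RPKM with a median of 4.64. No humanized mouse reached the germ-free range, and the LFC was -1.12 ± 0.25 (SE, FDR = 1.38e-04). Lamb1, the β chain most often joined to it, was at 9.97, 8.60, 9.70, 10.6 and 9.38 RPKM in germ-free mice and from 1.43 to 6.73 RPKM (median 3.93) in humanized mice. Its groups were also apart, at an LFC of -1.24 ± 0.28 (SE, FDR = 1.43e-04). Lamb2, a β chain of muscle, vessel and nerve sheaths, read 6.69, 5.19, 6.30, 6.97 and 5.86 RPKM in germ-free mice and 1.96 to 4.67 RPKM (median 2.74) in humanized mice. It had the smallest decrease of the called stromal members, with no overlap and an LFC of -1.05 ± 0.18 (SE, FDR = 7.26e-07).

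Lama2, the α chain of muscle and nerve laminin, stood at 1.99, 1.32, 1.57, 2.15 and 1.88 RPKM in germ-free mice. In humanized mice it spanned 0.131 to 0.904 RPKM with a median of 0.471. The groups were apart, and the LFC of -1.90 ± 0.35 (SE, FDR = 2.56e-06) was the largest decrease among the members. Lama4, the α chain of vessels and fat, was at 3.28, 2.91, 3.05, 4.204 and 3.52 RPKM in germ-free mice and from 0.426 to 2.24 RPKM (median 1.26) in humanized mice. Again no humanized mouse entered the germ-free range, at an LFC of -1.41 ± 0.29 (SE, FDR = 4.08e-05). Lamc3, a γ chain of low level, had 0.953, 0.718, 0.893, 1.13 and 0.587 RPKM in germ-free mice and 0.0346 to 0.641 RPKM (median 0.169) in humanized mice. Humanized mouse 3 overlapped the germ-free group, and the LFC was -1.87 ± 0.52 (SE, FDR = 0.003). This call was lost with the quasi-likelihood test (FDR = 0.0187) and without germ-free mouse 1 or 4 (LFC -1.83 and -1.75) or humanized mouse 1, 2 or 6 (LFC -1.80, -1.80 and -1.72).

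**Figure D2:**
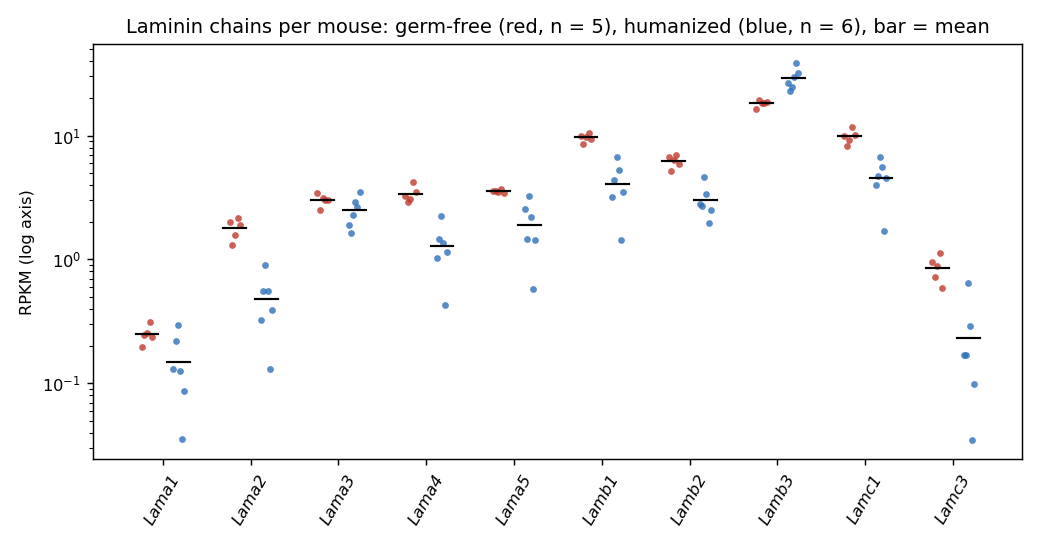
Level in RPKM (log y axis) of each of 10 laminin chains in every germ-free (red) and humanized (blue) mouse, with bars at the group means. Humanized points lie below the germ-free ones for Lama2, Lama4, Lama5, Lamb1, Lamb2 and Lamc1, and above them for Lamb3.

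Itga1, a collagen receptor subunit of smooth muscle, fibroblasts and some T cells, read 2.48, 2.48, 2.97, 4.25 and 2.49 RPKM in germ-free mice. Its humanized range was 0.640 to 1.39 RPKM with a median of 1.23. The groups did not meet, and the LFC was -1.38 ± 0.20 (SE, FDR = 7.93e-09), the smallest FDR among the members. Its levels, unlike the LFC, rest on a deposited length of 5984 bases, against 18599 exonic bases in GENCODE M21. Itga8, a receptor subunit of smooth muscle and fibroblasts that binds nephronectin, was at 0.340, 0.306, 0.455, 0.724 and 0.367 RPKM in germ-free mice and from 0.0286 to 0.181 RPKM (median 0.139) in humanized mice. It too had no overlap, with an LFC of -1.86 ± 0.38 (SE, FDR = 4.21e-05) on 10 to 56 reads per humanized mouse. Itga11, a fibroblast receptor for fibrillar collagen, was at 1.39, 1.07, 1.53, 1.36 and 1.35 RPKM in germ-free mice and from 0.160 to 1.01 RPKM (median 0.493) in humanized mice. All humanized mice were below all germ-free mice, at an LFC of -1.28 ± 0.33 (SE, FDR = 0.00162), a call lost with the quasi-likelihood test (FDR = 0.013).

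Among the stromal members not called, Itga5, the fibronectin receptor subunit, and Itga9, a subunit that binds tenascin, had LFC values of -0.83 (FDR = 0.0183) and -1.01 (FDR = 0.0125) with no overlap. Without humanized mouse 5 both were called, at LFC -0.65 (FDR = 0.00237) and -0.82 (FDR = 0.00117). Both were also called with total-count scaling (LFC -0.99 and -1.17, FDR = 0.00618 and 0.0058) and with epithelial scaling (LFC -1.03 and -1.21, FDR = 0.00737 and 0.00793). Itga9 was called besides without humanized mouse 3 (LFC -1.21) and by DESeq2 (adjusted p = 0.00582). Lama1, the α chain of early embryonic basement membranes, was low in both groups and had an LFC of -0.74 (FDR = 0.175).

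Itga7, a laminin receptor subunit best known from muscle, was the most abundant stromal member by the deposited gene lengths. It followed neither the class nor the 10 smooth muscle markers (median LFC -2.03), and which cells made its RNA here was not tested. It read 11.5, 9.83, 11.2, 12.1 and 11.4 RPKM in germ-free mice and from 9.79 to 15.1 RPKM (median 11.02) in humanized mice. The groups overlapped throughout, and humanized mouse 5, the lowest in 12 of the 14 stromal members, was the highest here. The LFC was 0.04 ± 0.10 (SE, FDR = 0.823) and -0.05 without humanized mouse 5. Its RPKM rests on a deposited length of 4013 bases, against 8092 exonic bases in GENCODE M21, which bears on the level but not on the LFC. Over all mice its mean was 11.4 RPKM with the deposited and 5.65 RPKM with the GENCODE length, and the latter is below Lamc1 (6.95 RPKM) and Lamb1 (6.61 RPKM). Itga10, with an LFC of 0.30 (FDR = 0.38), shares 33.5% of its exonic bases with another gene.

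**Figure D3:**
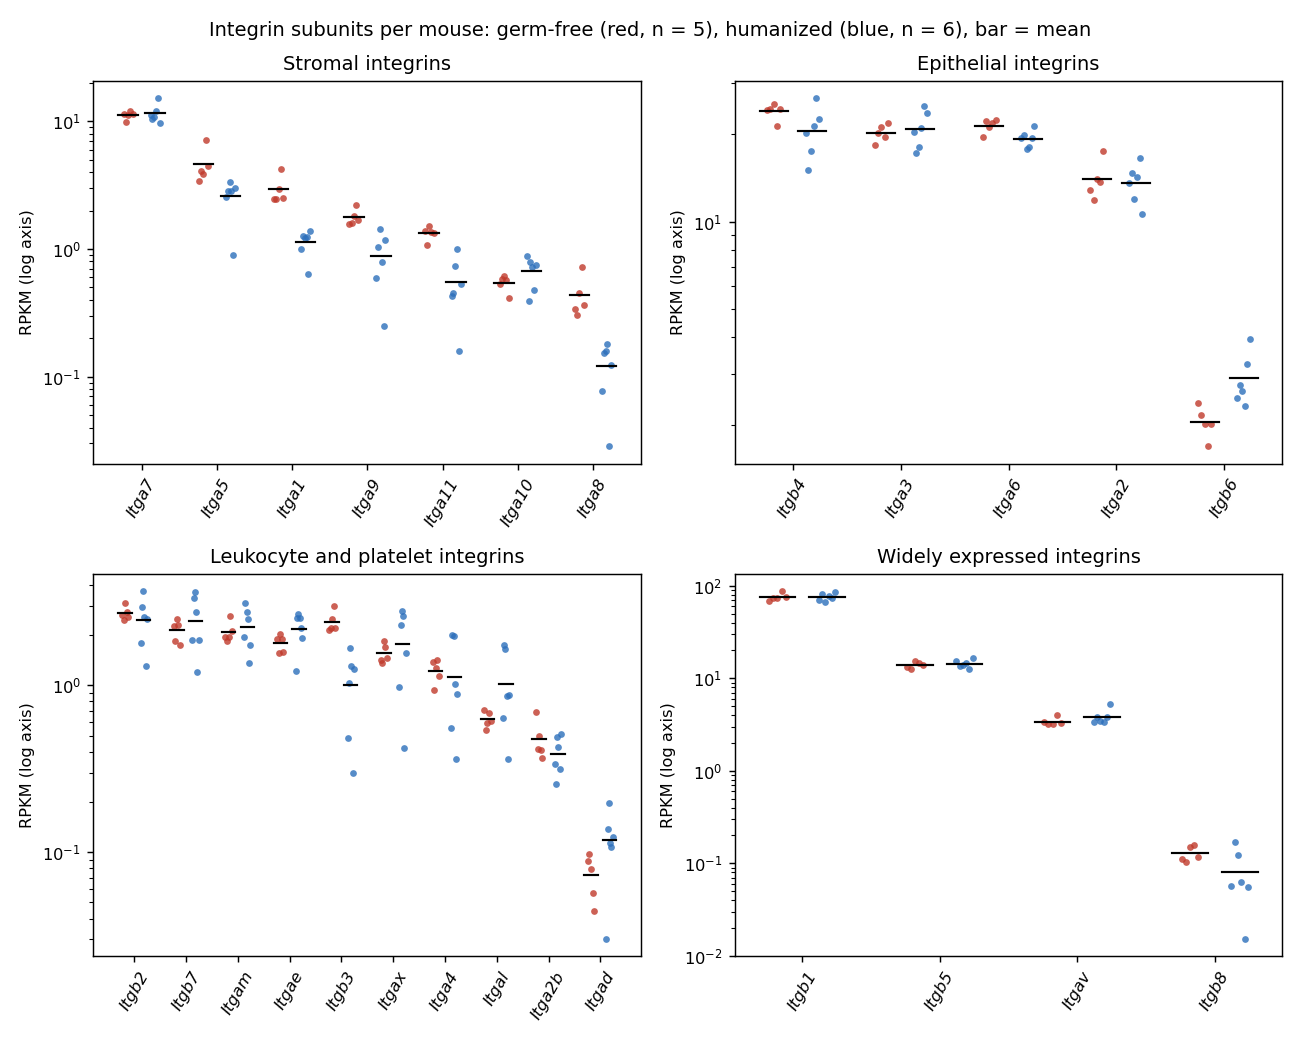
Level in RPKM (log y axis) of each integrin subunit in every germ-free (red) and humanized (blue) mouse, in 1 panel per class, with bars at the group means. Humanized points fall below the germ-free ones for Itga1, Itga5, Itga8, Itga9, Itga11 and Itgb3, while Itga7 and Itgb1 lie at the same height in both groups.

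Stromal cell markers moved with these members. All 10 smooth muscle markers were called lower (median LFC -2.03), though 5 of 10 with the quasi-likelihood test and 6 of 10 without germ-free mouse 4. Also called lower were 9 of 10 fibroblast markers (median LFC -1.52), 4 of 6 glial markers and 5 of 6 neuronal markers, against 7, 4 and 3 with the quasi-likelihood test. None of the 8 endothelial markers was called by edgeR's exact or quasi-likelihood test, though 7 passed an unadjusted p of 0.05 and DESeq2 called 2, and all 8 had an LFC below 0 (median -0.95). Of the 8 endothelial markers, 7 were called lower without humanized mouse 5, 6 without humanized mouse 3, 4 with total-count scaling, 1 with epithelial scaling and 1 without humanized mouse 4. The summed level of the 14 stromal members ran from 47.2 to 65.4 RPKM in germ-free and from 23.3 to 40.7 RPKM in humanized mice, that of the fibroblast markers from 253 to 414 and from 28.8 to 204 RPKM, and that of the smooth muscle markers from 403 to 1160 and from 48 to 402 RPKM. The part of these cell types in the result was not tested, and no defining marker of smooth muscle or fibroblasts was at 0.

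The order of the mice was alike across the class. Humanized mouse 5 was the lowest of its group in 12 of the 14 stromal members and humanized mouse 3 the highest in 9, and germ-free mouse 4 was the highest of its group in 12. The median coefficient of variation between mice was 14.9% in germ-free and 45.7% in humanized mice for stromal members, compared with 10.4% and 16.5% over all tested genes. Leaving out any 1 mouse left 8 to 11 stromal members called lower. Without humanized mouse 5 the count was 11.

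**Figure D4:**
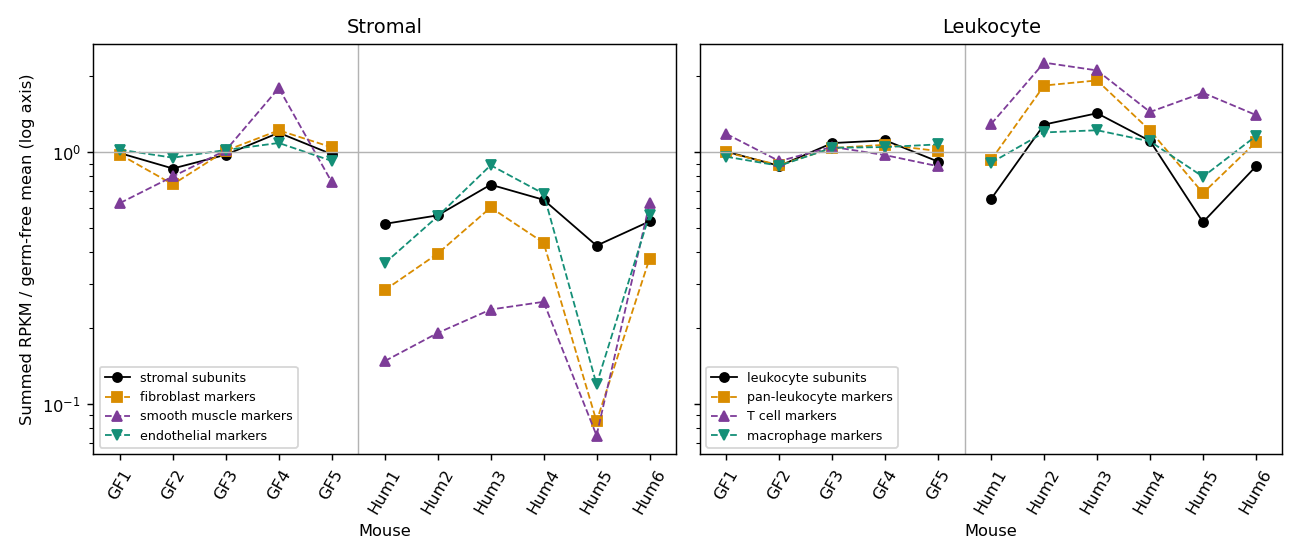
Summed RPKM of the stromal (left) and the leukocyte and platelet members (right) in each mouse, with marker lists beside them, divided by the germ-free mean of each list (log y axis). The stromal members and the fibroblast and smooth muscle markers of humanized mouse 5 are the lowest of the series, and the leukocyte members peak in humanized mouse 3.

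Leukocyte and platelet members showed 1 call in 10, that of Itgb3, and this 10% lower is near the 10.1% of all tested genes. Itgb3 is the β subunit that platelets pair with Itga2b and that vessels and fibroblasts pair with Itgav. Itgb3 was at 2.13, 2.198, 2.49, 2.97 and 2.204 RPKM in germ-free mice. In humanized mice it ranged from 0.296 to 1.67 RPKM with a median of 1.14. The groups did not overlap, with means of 2.40 ± 0.348 (SD, n = 5) and 1.01 ± 0.521 RPKM (SD, n = 6) and an LFC of -1.25 ± 0.35 (SE, FDR = 0.00285). The call was lost with the quasi-likelihood test (FDR = 0.018) and without germ-free mouse 3 (LFC -1.24) or germ-free mouse 4 (LFC -1.17). Its platelet partner Itga2b had an LFC of -0.29 (FDR = 0.426) and overlapping groups. Of 6 platelet markers, Pf4 fell (LFC -1.82), Gp1bb was not called, and Ppbp, Gp9, Gp6 and Treml1 were below the expression filter, with means of at most 0.179 RPKM.

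The most abundant subunits of this class, by the mean over all mice with the deposited lengths, were Itgb2, the β subunit common to leukocytes, and Itgb7, the β subunit of gut-homing and intraepithelial lymphocytes, although in germ-free mice the mean of Itgb3 was above that of Itgb7. Itgb2 stood at 2.62, 2.47, 3.13, 2.74 and 2.55 RPKM in germ-free mice and from 1.30 to 3.66 RPKM (median 2.54) in humanized mice, an LFC of -0.13 ± 0.21 (SE, FDR = 0.732). Itgb7 stood at 2.27, 1.85, 2.49, 2.30 and 1.74 RPKM in germ-free mice and from 1.21 to 3.63 RPKM (median 2.31) in humanized mice, an LFC of 0.20 ± 0.25 (SE, FDR = 0.655). In both genes the humanized values enclosed the germ-free ones. Itgae, which pairs with Itgb7 to bind E-cadherin, had an LFC of 0.28 (FDR = 0.32), and Itga4, which pairs with Itgb7 or Itgb1, one of -0.12 (FDR = 0.858).

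The partners of Itgb2 were not called. Itgal, the lymphocyte partner, had means of 0.628 ± 0.0702 (SD, n = 5) and 1.02 ± 0.555 RPKM (SD, n = 6), an LFC of 0.70 ± 0.33 (SE, FDR = 0.127), and it was called higher without humanized mouse 5 (LFC 0.87, FDR = 0.00713). Itgad had the same LFC of 0.70 (FDR = 0.181) on 5 to 42 reads per humanized mouse. Itgam and Itgax, the partners in myeloid cells, had LFC values of 0.10 and 0.19, and Itgam shares 68.7% of its exonic bases with another gene on the same strand. With the GENCODE length the mean of Itgam over all mice was 2.76 RPKM, above that of Itgb2 (2.57 RPKM). No member of this class was called higher by edgeR's exact or quasi-likelihood test or by DESeq2, and 1 of 10 passed an unadjusted p of 0.05 in that direction, against 18.5% of all tested genes.

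Leukocyte markers did not move as one. The T cell markers rose in 6 of 9 (66.7%, median LFC 0.96), against 9.2% of all tested genes. The B and plasma cell markers rose in 4 of 7 (57.1%, median LFC 1.62). None of the 7 pan-leukocyte markers was called by edgeR's exact or quasi-likelihood test, with 1 at an unadjusted p below 0.05 and 1 called by DESeq2. Of the T cell markers 3 were called higher with epithelial scaling and 5 with total-count scaling. With the quasi-likelihood test and under both scalings 3 of the B and plasma cell markers were called. Of 8 macrophage markers 1 was called lower and 1 higher (12.5% each), near the 10.1% and 9.2% of all tested genes. The lower call was lost with the quasi-likelihood test and without germ-free mouse 4 or humanized mouse 1. The summed level of the leukocyte and platelet members was 13.3 to 16.8 RPKM in germ-free and 7.94 to 21.5 RPKM in humanized mice, and that of the T cell markers was 8.59 to 11.5 and 12.6 to 22.2 RPKM. Humanized mouse 5 was the lowest of its group in 7 of these 10 members. The part of the leukocyte numbers in these values was not tested. The coefficient of variation had a median of 14.6% in germ-free and 42.1% in humanized mice.

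Of the widely expressed members, Itgb1, the β subunit with the largest number of α partners, was the most abundant of all 36. It read 69.1, 74.0, 73.8, 87.4 and 76.0 RPKM in germ-free mice and from 66.3 to 84.8 RPKM (median 75.1) in humanized mice. The groups covered the same range, with an LFC of -0.01 ± 0.08 (SE, FDR = 0.946). Itgb5, a vitronectin receptor subunit that pairs with Itgav, read 13.2, 12.6, 15.2, 14.8 and 13.8 RPKM in germ-free mice and 12.5 to 16.6 RPKM (median 14.3) in humanized mice, an LFC of 0.05 ± 0.08 (SE, FDR = 0.752). Itgav and Itgb8, which form another activator of latent TGF-β, had LFC values of 0.17 (FDR = 0.335) and -0.67 (FDR = 0.269).

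Lama5, the main laminin α chain of adult epithelial and vessel basement membranes, was the widely expressed member with the largest difference. Its mean was 3.56 ± 0.105 RPKM (SD, n = 5) in germ-free mice, where it varied by 2.96%, and 1.91 ± 0.953 RPKM (SD, n = 6) in humanized mice, where it varied by 49.8%. The groups did not overlap, but the LFC of -0.90 ± 0.31 (SE) was not called (FDR = 0.0193). It was called without humanized mouse 3 (LFC -1.12, FDR = 0.00105), without humanized mouse 5 (LFC -0.71, FDR = 0.00192) and with total-count scaling (LFC -1.06, FDR = 0.00802). No widely expressed member was called in either direction by edgeR's exact or quasi-likelihood test or by DESeq2. In the lower direction 1 of 5 passed an unadjusted p of 0.05 (20%, near the 19% of all tested genes).

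Ratios of 2 genes within a mouse do not depend on how the libraries are scaled, and they were compared between the groups with an exact permutation test (two-sided, over all splits of the mice, smallest possible p 0.00216) and a Benjamini–Hochberg correction over 7 ratios, of which 6 are given. The ratio of Lama2 to Lama4, the muscle and the vessel α chains, was 0.453 to 0.607 in germ-free and 0.309 to 0.405 in humanized mice. The groups were apart: the geometric mean fell from 0.522 to 0.357, a log2 difference of -0.55 (exact permutation p = 0.00216, adjusted p = 0.00758). Both genes are low, and with 1 RPKM added to each the log2 difference was 0.06 (adjusted exact permutation p = 0.548). The added 1 RPKM is above every humanized Lama2 value (0.131 to 0.904 RPKM) and draws the ratio toward 1. This alternative therefore cannot decide whether the ratio differs. Fermt1 and Fermt2 encode kindlins, the cytoplasmic activators of integrins, of epithelial and of stromal cells respectively. Their ratio was 1.45 to 3.04 in germ-free and 5.15 to 34.0 in humanized mice, a 3.78-fold rise of the geometric mean (log2 difference 1.92, exact permutation p = 0.00216, adjusted p = 0.00758) with no overlap.

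The other 4 ratios overlapped between the groups and were not past the threshold. Lama3 to Lama5 went from 0.846 to 1.44 (exact permutation p = 0.165, adjusted p = 0.215), Itgae to Itga4 from 1.47 to 2.24 (exact permutation p = 0.108, adjusted p = 0.189), and Itgb4 to Itgb1 from 0.316 to 0.269 (exact permutation p = 0.184, adjusted p = 0.215). Itga6 to Itgb4, the α and β subunits of the hemidesmosome receptor, was 0.895 in germ-free and 0.954 in humanized mice (exact permutation p = 0.554, adjusted p = 0.554).

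**Figure D5:**
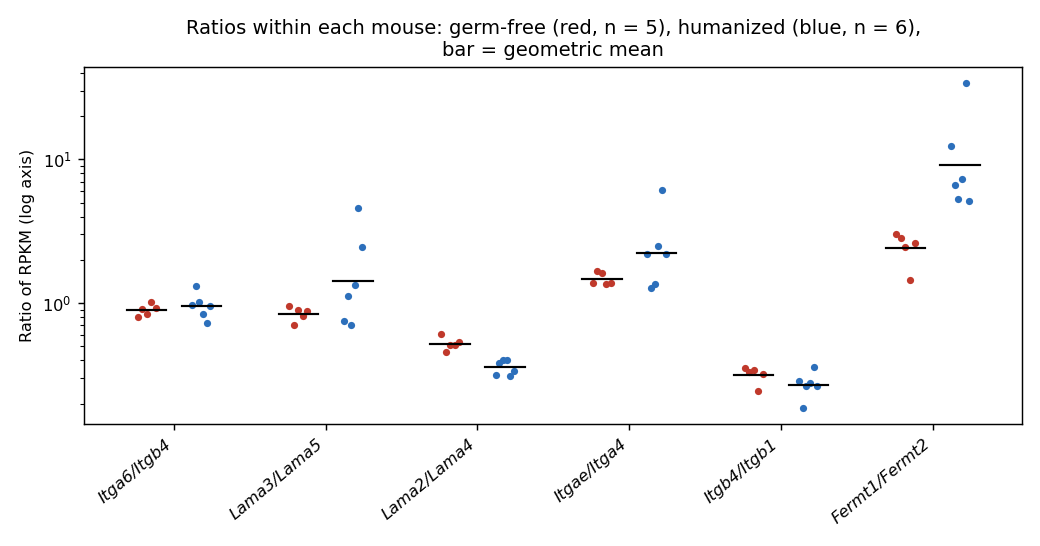
Ratio of the RPKM values of 2 genes within each mouse (log y axis), germ-free in red and humanized in blue, with bars at the geometric means. The groups are apart for Lama2/Lama4, lower in humanized mice, and for Fermt1/Fermt2, higher in humanized mice, and the highest Lama3/Lama5 and Itgae/Itga4 ratios are those of humanized mouse 5.

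The genes that work with integrins and laminins were taken as 4 lists of 64 genes in all, of which 30 were called lower (46.9%) and 3 higher (4.69%), against 10.1% and 9.2% of all tested genes (median LFC -0.61). Of the basement membrane partners of laminin 13 of 16 genes fell (81.2%, median LFC -1.20), with none called higher by edgeR's exact or quasi-likelihood test or by DESeq2 and 1 at an unadjusted p below 0.05. The collagen IV chain genes Col4a6 (LFC -1.52, FDR = 6.47e-05), Col4a4 (LFC -1.45, FDR = 6.45e-05) and Col4a5 (LFC -1.34, FDR = 2.2e-04) and the linking collagen gene Col15a1 (LFC -1.41, FDR = 5.9e-04) had the largest decreases, and Col4a4 was low, at 0.133 RPKM in germ-free and 0.0488 RPKM in humanized mice. Dag1, which encodes dystroglycan, a laminin receptor outside the integrin family, was the most abundant partner at 40.01 ± 1.45 RPKM (SD, n = 5) and 44.8 ± 2.73 RPKM (SD, n = 6) and was not called (LFC 0.16, FDR = 0.0695). Col4a1, next in level, fell from 28.1 ± 2.59 (SD, n = 5) to 11.9 ± 6.13 RPKM (SD, n = 6), at FDR = 0.00504. With the quasi-likelihood test 6 of the 16 partners were called lower, and Col15a1 (FDR = 0.0103) and Col4a1 (FDR = 0.0261) lost their calls. Leaving out 1 mouse gave 8 to 14 partners lower, with 8 without germ-free mouse 4. Col4a1 was also not called without any 1 germ-free mouse or humanized mouse 1, 2 or 6 (LFC -1.28 to -1.15).

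Of 18 ligands of integrins, 9 were called lower and none higher (median LFC -0.92), and 7 were lower with the quasi-likelihood test. In the higher direction 1 passed an unadjusted p of 0.05, with no higher call from the quasi-likelihood test or DESeq2. Vitronectin (Vtn, LFC -2.42, FDR = 4.97e-07), Edil3 (LFC -2.11, FDR = 7.36e-06), Svep1 (LFC -1.70, FDR = 1.52e-04) and nephronectin (Npnt, LFC -1.62, FDR = 1.13e-07), the ligand of the Itga8 receptor, had the largest decreases, that of Vtn on 2 to 17 reads per humanized mouse. E-cadherin (Cdh1), the ligand of Itgae and a defining epithelial gene, was the most abundant at 152.7 and 171.2 RPKM and was not called (LFC 0.16, FDR = 0.138). Mfge8, a bridge from Itgav receptors to dying cells, came next and was not called either (LFC -0.19, FDR = 0.70).

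The 24 cytoplasmic adaptors of integrins held 8 lower and 2 higher calls, those of Fermt1 and Ptk2, with a median LFC of -0.17. The lower calls were 33.3% and the higher calls 8.33% of the list, the latter near the 9.2% of all tested genes. With total-count scaling 12 were lower and 0 higher (median LFC -0.33), and with epithelial scaling 11 and 0 (median LFC -0.38). The 3 kindlins differed from each other: Fermt2, of stromal cells, fell from 8.18 ± 2.22 (SD, n = 5) to 2.95 ± 1.402 RPKM (SD, n = 6; LFC -1.47 ± 0.35, FDR = 4.55e-04). Fermt1, of epithelial cells, rose from 19.2 ± 0.984 (SD, n = 5) to 22.9 ± 0.979 RPKM (SD, n = 6; LFC 0.26 ± 0.05, FDR = 0.00115). The rise of Fermt1 was not called with total-count scaling (LFC 0.07), with epithelial scaling (LFC 0.01) or without germ-free mouse 4 (LFC 0.23, FDR = 0.0108), while Fermt2 stayed called under both scalings. Fermt3, of blood cells, had an LFC of -0.02 (FDR = 0.96). Tns1, a tensin of muscle-rich tissue (LFC -1.70, FDR = 1.53e-04), Lims2 (LFC -1.48, FDR = 2.11e-04) and Tln2, the second talin (LFC -0.90, FDR = 4.97e-16), also fell. The most abundant adaptors, Tns4 (LFC 0.52, FDR = 0.0108) and Ilk (LFC -0.15, FDR = 0.131), were not called, but Tns4 was called higher by DESeq2 (adjusted p = 0.00914) and without humanized mouse 1, 2 or 3 (LFC 0.56, 0.56 and 0.57). Of 6 hemidesmosome and keratin genes Krt18 was the only one called by edgeR's exact test on all mice, higher at an LFC of 0.48 (FDR = 1.58e-05), though not with epithelial scaling (LFC 0.23, FDR = 0.0966), whose 12 markers include Krt18 itself, and DESeq2 also called Cd151, a tetraspanin, higher (adjusted p = 0.00841). Krt8, the most abundant, had an LFC of 0.27 (FDR = 0.0957). Of the markers given above, the smooth muscle (median LFC -2.03), fibroblast (-1.52), endothelial (-0.95), glial (-1.63) and neuronal (-1.705) lists also had medians below 0. So did the macrophage markers (-0.51) and the platelet markers that passed the expression filter (-0.97). The T cell (0.96), B and plasma cell (1.62), pan-leukocyte (0.26) and epithelial markers (0.24) had medians above 0. The part of these cell types was not tested.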

How the data were processed

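Colonic RNA libraries of 5 germ-free and 6 humanized mice were made with a kit that does not mark strand and read as 101 bp paired ends. The authors aligned the reads to mm10 with TopHat2 2.1.0 and Bowtie2 2.2.3, counted them per gene with featureCounts (Subread 1.4.6-p5) and deposited the raw counts without normalization. Sequences and shared exonic bases come from RefSeq (GRCm38.p6) and GENCODE M21, which need not be the annotation counted with.

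Groups followed the sample labels. The comparison followed the study's methods, using edgeR 4.0.16 under R 4.3.3: filterByExpr (minimum count 10, total 15, large n 10, proportion 0.7), TMM, exact test, and Benjamini–Hochberg correction over all tested genes, called at FDR below 0.01. Standard errors come from the quasi-likelihood fit. RPKM used TMM-scaled libraries and the deposited lengths. The test was also tried on simulated data, with no outcome given here. No 2 libraries of a group agreed within sampling noise (chi-square per gene 21.2 to 132), and nothing in the sources names a sequencing batch.

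Members, classes and gene lists were chosen with earlier results of these data known. Results of 1 gene that the rule kept are not reported here, and counts leave it out. For called members and the 2 most abundant of each class, the value of each germ-free mouse and the range and median of the humanized mice are given. Of each pathway list, LFC values are given for at most the 4 called genes with the largest LFC, the 2 most abundant and the kindlins. Alternatives were the quasi-likelihood test, DESeq2 1.42.0, RLE, total-count and epithelial scaling, 2 filters, FDR below 0.05, leaving out each mouse, a replicate block (samples sharing a number correlated at -0.133 to 0.091), and for ratios a pseudocount of 1 RPKM.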

Additional observations from a re-analysis of the deposited data

Results flagged for a closer look

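In 5 of 72 tests of a group of mice on a single member, the highest or lowest mouse lay farther from the others than Dixon's 95% limit allows, where chance alone gives about 1 in 20, or 3.6. Germ-free mouse 4 was low in Itgb4, at 21.31 RPKM against 24.36 RPKM or more in the other germ-free mice. The same mouse was high in Itgav, at 4.001 RPKM, with 3.385 RPKM the next. Humanized mouse 6 was high in Itgav too, at 5.314 RPKM, with 3.787 RPKM in the next mouse. Humanized mouse 5 was low in Itga5, at 0.9037 RPKM, with 2.575 RPKM the next, and without it Itga5 was called lower (LFC -0.65, FDR = 0.00237). Humanized mouse 1 was low in Itgad, at 0.03019 RPKM, with 0.1073 RPKM the next.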

How the results depend on the processing

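Of 1036 alternative values, most kept their direction and their side of the threshold. The 10 lower and 2 higher calls became 7 and 1 with the quasi-likelihood test, 11 and 2 with DESeq2, 15 and 1 with total-count scaling and 14 and 1 with epithelial scaling. Among epithelial members, 1 was higher with the quasi-likelihood test, total-count scaling, epithelial scaling, no filter, or at least 10 counts in every mouse, and 2 were lower under the 2 scalings. With the quasi-likelihood test 0 leukocyte members were lower. Of widely expressed members 1 was lower with total-count scaling or FDR below 0.05. Of the pathway genes 5 were higher with DESeq2 or FDR below 0.05, 1 with total-count and 0 with epithelial scaling. With the quasi-likelihood test 7 adaptors, 6 basement membrane partners and 7 ligands were lower, against 8, 13 and 9 in the main test. Leaving out 1 mouse gave 1 to 2 epithelial members higher, 0 to 1 leukocyte members higher, 0 to 1 lower, 0 to 1 widely expressed members lower, 2 to 5 pathway genes higher and 23 to 32 lower. The difference between groups in the log2 ratio of Itga6 to Itgb4 ran from -0.0007 to 0.17. With 1 RPKM added, which is above every humanized Lama2 value, Lama2 to Lama4 turned to 0.058. Because the 5 paired mice of each group share only a number (correlations -0.133 to 0.091, and 1 of 5 humanized mice correlated best with its own), the replicate block is given once: on replicates 1 to 5 the quasi-likelihood test with the block called 2 stromal members lower, 10 pathway genes lower and 0 higher, and 0 epithelial or leukocyte members in either direction. The same mice without the block, a fit chosen after seeing the data, gave 4, 15, 1 epithelial member higher and 0 leukocyte members lower. The cause of these changes was not tested.

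No member that changed sign was called. With total-count scaling, Itga3 was at -0.14, Itga7 -0.15, Itgam -0.071, Itgav -0.014 and Itgb5 -0.14. With epithelial scaling, Itga3 was at -0.21, Itga7 -0.21, Itgam -0.11, Itgav -0.091, Itgb5 -0.20 and Itgb7 -0.0060. With the block, Itga2 was at 0.024, Itga3 -0.0075, Itgax -0.029 and Itgb5 -0.0039, and the same mice without it gave Itga2 0.020 and Itgb5 -0.0048. Without single mice, Itga7 ran from -0.050 to 0.082, Itgb1 from -0.054 to 0.042, Itga2 from -0.10 to 0.057, Itga4 from -0.36 to 0.065, Itgam from -0.027 to 0.21, Itga3 from -0.012 to 0.092 and Itgb5 from -0.0050 to 0.085. Depth limits Itgad, Itgb8, Itga8 and Lamc3 among the members, with as few as 5, 8, 10 and 10 reads in a humanized mouse, and Vtn, Col17a1 and Col4a3 among the pathway genes, with as few as 2, 5 and 9.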
